A study of Danio rerio with 32 samples.

Results

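Of 14199 A>G or T>C mismatch sites listed in wild-type zebrafish embryos at both the 16-cell stage and 3.5 hours post fertilization (hpf), 4965 were not listed at 5.3 hpf (35%; 95% Wilson interval 34.2% to 35.8%). These 4965 absent sites, of 30154 A>G or T>C sites listed at any of the 3 stages, are described here. A site belonged to them when a line with the same chromosome, start and change stood in the lists of both early stages and not in the list of 5.3 hpf. The members were thus chosen by the measured mismatch calls of these lists, at whose frequency limit a site is kept or dropped, and the shares and frequencies below describe them without a test. The 9234 sites listed at all 3 stages, called retained sites, are set beside them.

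Adenosine deaminases acting on RNA (ADARs) convert adenosine to inosine in double-stranded RNA, and inosine is read as guanosine during sequencing. An edited adenosine thus appears as an A>G mismatch against the genome where the transcript is on the plus strand, and as T>C where it is on the minus strand. The early embryo lives on transcripts laid down by the mother, which are cleared in part during the maternal-to-zygotic transition while the embryo starts its own transcription. Long inverted repeats, often in 3′-UTRs, fold into the duplexes that ADARs edit, and many adenosines of the same duplex can be edited.

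The lists came from 1 wild-type family of ABTL background, while the paper's methods name AB as the wild-type strain. Genomic DNA was taken from fin clips of an individual female and an individual male, and RNA from pools of 20 of their whole embryos at each of the stages, with 1 library for each stage, rRNA depletion in place of poly(A) selection, and no injection or mutation in any of these samples. A listed frequency gives, as a share of the RNA reads over a site, those with the mismatched base, and no line lay below 20% at any stage. Since each stage had 1 library, no value has a replicate error, and the Wilson intervals cover counting error over sites only.

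The coverage of a site is not part of the lists, so its depth is unknown beyond the minimum that the paper's methods set. A site can be missing at 5.3 hpf because its RNA was no longer edited, because its frequency lay below 20%, or because too few reads covered it. The paper's methods also left out sites with several alternative alleles. In these lists those cases cannot be told apart. Nor do the lists separate RNA of the mother from RNA made by the embryo. The name maternal rests on the 16-cell stage alone, which precedes the start of broad zygotic transcription. The lists were of similar length, with 25236 lines at the 16-cell stage, 24976 at 3.5 hpf and 25852 at 5.3 hpf, but the last held fewer A>G or T>C lines (17151) than the first (19439) and the second (19108).

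The absent sites made up 25.5% of the A>G or T>C sites of the 16-cell list and 26.0% of those of the 3.5 hpf list. They comprised 2287 A>G and 2678 T>C sites, or 46.1% and 53.9%, against 46.2% A>G and 53.8% T>C among the retained sites. Both orientations were therefore absent equally often, at 34.9% (interval 33.7% to 36.1%) for A>G and 35.03% (interval 34.0% to 36.1%) for T>C. Sites with another change, which ADARs do not make, were absent at 5.3 hpf slightly more often, in 1387 of 3527 cases or 39.3% (interval 37.7% to 40.9%). Over all changes the share was 35.8%, so absence at 5.3 hpf was not particular to A>G and T>C. Editing-type changes made up 78.2% of all sites absent at 5.3 hpf (interval 77.1% to 79.2%) and 81.2% of all sites listed at the 3 stages (interval 80.5% to 81.9%).

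Absence at 5.3 hpf was more frequent than absence from either early list alone. Of 10253 A>G or T>C sites listed at the 16-cell stage and at 5.3 hpf, 1019 were missing at 3.5 hpf (9.94%; interval 9.37% to 10.5%), and of 10326 sites listed at 3.5 and 5.3 hpf, 1092 were missing at the 16-cell stage (10.6%; interval 9.997% to 11.2%). For the other changes the same shares were 14.9% and 18.1%. The lists of the early stages thus differed less from each other than either differed from the 5.3 hpf list, for editing-type and other changes alike.

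Sites with a low editing frequency were absent more often, which follows in part from the 20% limit of the lists. Among A>G or T>C sites with a mean early frequency of 20% to under 25%, 715 of 1268 were absent at 5.3 hpf (56.4%), and between 25% and 30% it was 922 of 1983 (46.5%). The share was 36.5% between 30% and 40%, 29.7% between 40% and 50%, 27.8% between 50% and 60%, 26.2% between 60% and 80% and 25.4% between 80% and 100%. High frequency did not keep a site in the list, because 388 of 1530 sites of the last range were absent. In the same range, 35 of 1100 sites (3.18%; interval 2.30% to 4.39%) were missing from the 3.5 hpf list while listed before and after it.

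Sites at exactly 100% at both early stages departed from this order. Of 342 such sites, 134 were absent at 5.3 hpf, or 39.2% (interval 34.2% to 44.4%). Among sites with another change at 100% the share was 40.9% (248 of 606 sites). The rise at 100% was not particular to absence at 5.3 hpf. Of A>G or T>C sites at 100%, 18 of 159 (11.3%) were missing only at 3.5 hpf, against 3.18% between 80% and 100%. Only at the 16-cell stage 18 of 169 (10.7%) were missing, against 2.45%. Below a mean early frequency of 40%, editing-type and other changes were absent at similar shares, such as 36.5% and 37.6% between 30% and 40%. Between 60% and 80% editing-type sites were absent less often, with 26.2% (interval 24.4% to 28.1%) against 36.8% (interval 31.1% to 42.9%) of other changes, and between 80% and 100% the shares were 25.4% (interval 23.2% to 27.6%) and 28.3% (interval 24.7% to 32.2%).

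**Figure D1:**
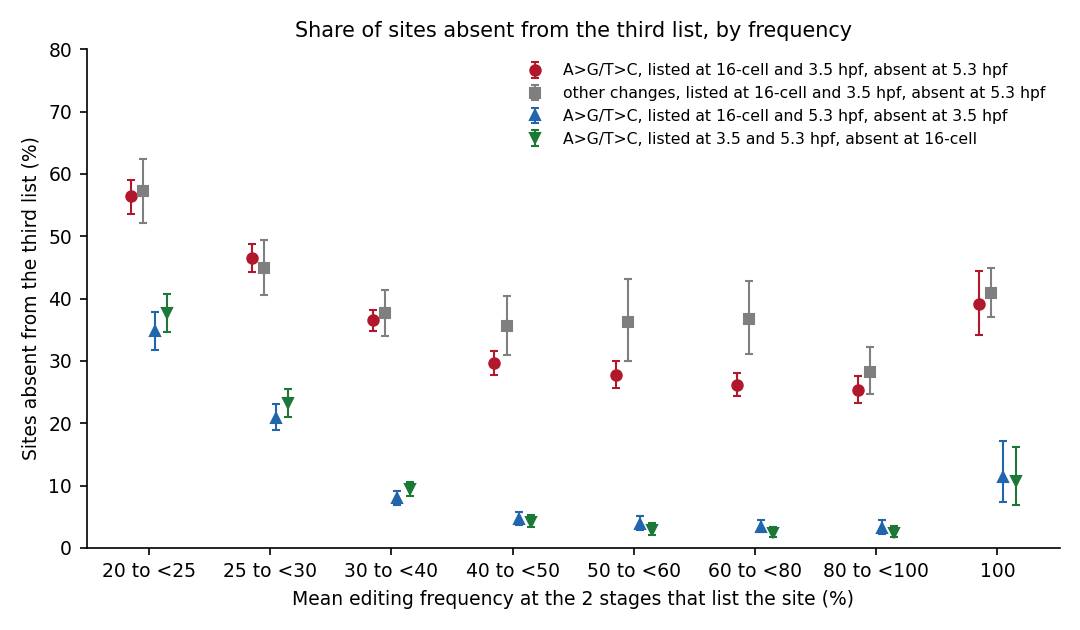
Share of sites absent from the third list (y axis, %) by their mean editing frequency at the 2 stages that list them (x axis, %), with 95% Wilson intervals. Red circles are A>G or T>C sites absent at 5.3 hpf, which fall to 25.4% in the range of 80% to 100% while the sites missing only at 3.5 hpf (blue) or only at the 16-cell stage (green) fall to 3.18% and 2.45%, and grey squares are other changes absent at 5.3 hpf. Each series stands higher again at 100%.

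At each early stage the absent sites ranged between the 20% limit of the lists and 100%. Their median frequency was 36.0% at the 16-cell stage (quartiles 26.3% and 56.2%) and 37.0% at 3.5 hpf (quartiles 27.3% and 57.1%). Retained sites had higher frequencies, with medians of 46.2% and 46.7% at these stages and 43.1% at 5.3 hpf. Since sites near 20% are dropped more easily, this order follows in part from the rule. At both early stages, 1279 absent sites lay at 50% or more (25.8%; interval 24.6% to 27.0%), against 3613 retained sites (39.1%; interval 38.1% to 40.1%), and 433 absent sites (8.72%) lay at 80% or more.

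Near the lower limit the order was turned round. Absent sites under 30% at both early stages numbered 1115 (22.5%; interval 21.3% to 23.6%), and retained sites numbered 1006 (10.9%; interval 10.3% to 11.5%). Just inside the limit, 251 absent sites (5.06%) had under 21% at 3.5 hpf, against 161 retained sites (1.74%). At 5.3 hpf, 262 retained sites (2.84%) had under 21%.

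**Figure D2:**
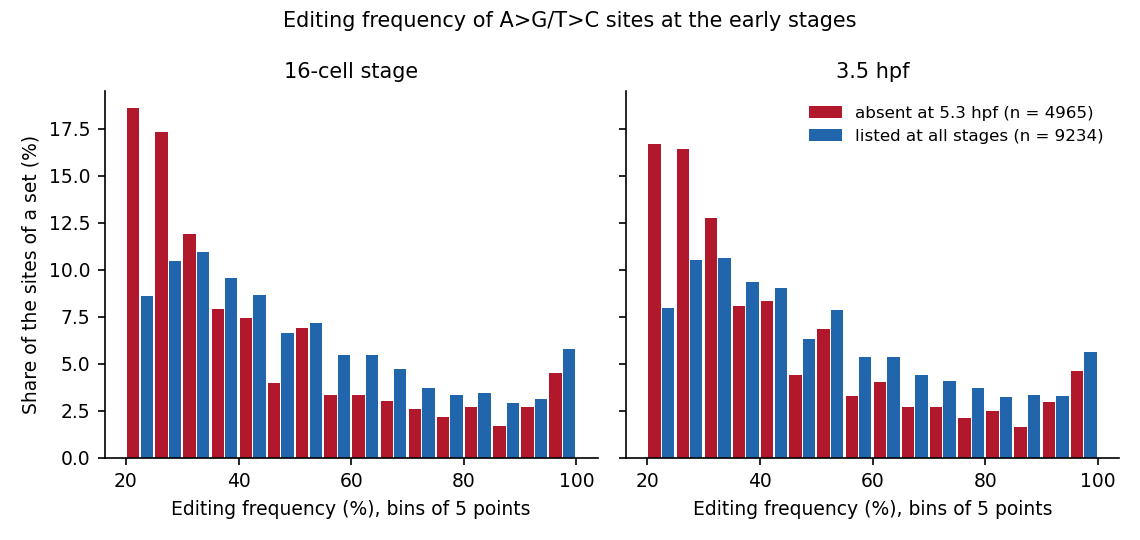
Distribution of the editing frequency (x axis, %, in bins of 5 points) as a share of the sites of each set (y axis, %) at the 16-cell stage and at 3.5 hpf. Red bars are the 4965 absent sites, which gather at 20% to 30%, and blue bars are the 9234 retained sites, whose medians of 46.2% and 46.7% lie higher.

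Sites that fell below 20% by 3.5 hpf are not among the members, so a decline between the early stages can be seen only in part. The difference between 3.5 hpf and the 16-cell stage had a median of 0.09 percentage points (quartiles -6.25 and 7.69 points), against a median of 0 among retained sites (quartiles -5.28 and 6.0 points). Frequencies were higher at 3.5 hpf by 10 points or more at 940 absent sites (18.9%), where 16.1% of all 14199 sites were, and lower by 10 points or more at 831 absent sites (16.7%), where 14% of all sites were. The absolute difference between these stages had a median of 6.91 points at absent sites and 5.65 points at retained sites. Across sites, frequencies at the 16-cell stage and 3.5 hpf had a Pearson r of 0.85 over the 4965 absent sites and 0.90 over the 9234 retained sites. Sites that lie close together share reads and are not independent.

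Absent sites lay in groups, as did retained sites, for which the pair share and spacing below were not computed separately. Next to another A>G or T>C site listed at both early stages within 100 bp, with at least 1 of the pair absent at 5.3 hpf, the change was the same in 4602 of 4670 adjacent pairs (98.5%; interval 98.2% to 98.8%). The distance from an absent site to the nearest other absent site of the same change had a median of 10 bp (quartiles 2 and 81 bp, over 4951 sites with such a neighbour on their chromosome). Within 100 bp, 4311 absent sites (86.8%; interval 85.9% to 87.7%) had another site of the same change listed at both early stages, against 8416 retained sites (91.1%; interval 90.5% to 91.7%). Of the sites with another change absent at 5.3 hpf, 23.0% had such a neighbour.

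The surroundings of many absent sites were still listed at 5.3 hpf. A site of the same change stood in the 5.3 hpf list within 100 bp of 2762 absent sites (55.6%; interval 54.2% to 57.0%), against 8502 retained sites (92.1%; interval 91.5% to 92.6%). Within 5000 bp it was 75.6% of absent sites and 95.6% of retained sites. For the 1019 sites missing from the 3.5 hpf list only, 81.2% (interval 78.6% to 83.4%) had a site of the same change listed at 3.5 hpf within 100 bp. That share is not measured alike, since it searches a longer list (19108 against 17151 A>G or T>C lines). Those 1019 sites were also listed both before and after the gap, which the absent sites could not be. Nothing of any change was listed at 5.3 hpf within 5000 bp of 1032 absent sites (20.8%), and of 130 retained sites (1.41%). Retained sites were chosen for standing in the same 5.3 hpf list that was searched. The contrasts between absent and retained sites in this paragraph thus follow in part from the rule.

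Retained sites were the commonest of these neighbours. They lay within 100 bp of 2406 absent sites (48.5%), and a site of the same change listed at 5.3 hpf alone lay within 100 bp of 1062 (21.4%). For 219 absent sites (4.41%) a site listed at 5.3 hpf alone was near and no retained site was. At chr5:7103015 the early change A>G, with 41.2% at the 16-cell stage and 41.7% at 3.5 hpf, was followed by A>T at 30.8% at 5.3 hpf, and this was the only absent site whose position carried another change in the 5.3 hpf list.

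The 14199 early sites were joined into clusters, where a site belonged to the cluster of its neighbour of the same change within 100 bp. Of the absent sites, 654 stood alone (13.2%), 1672 lay in 428 clusters of 2 or more sites that were absent as a whole (33.7%), and 2639 lay in 893 clusters that were absent in part (53.2%). Complete absence became rarer with size. All sites were absent in 319 of 1097 clusters of 2 to 4 sites (29.1%), in 88 of 537 clusters of 5 to 9 sites (16.4%) and in 21 of 349 clusters of 10 or more sites (6.02%; interval 3.97% to 9.02%). In 273 of these 349 large clusters (78.2%) some sites were absent and others retained. A larger cluster offers more sites of which 1 can be retained, so the order of these shares follows in part from size alone.

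**Figure D3:**
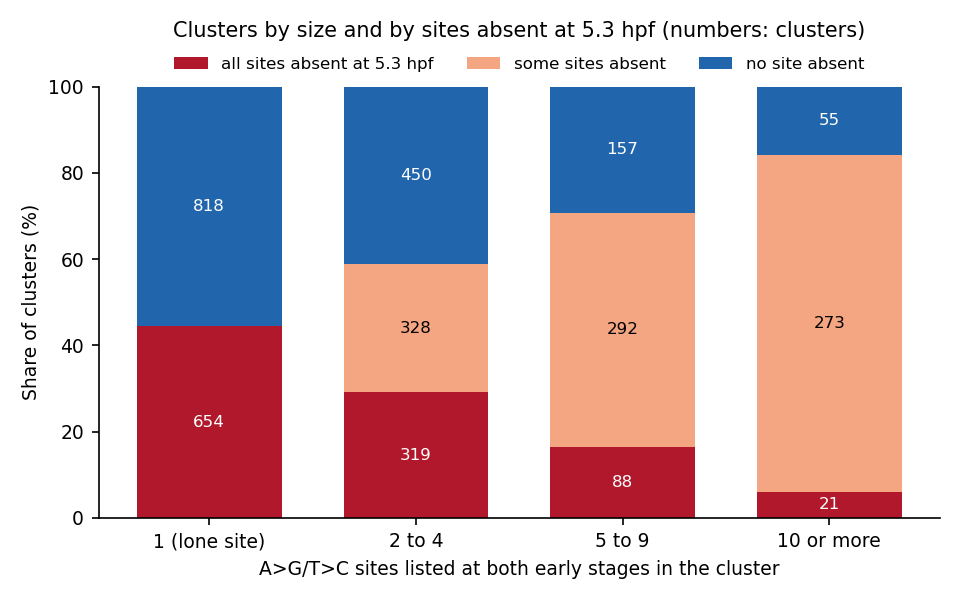
Clusters of A>G or T>C sites listed at both early stages, by their number of sites (x axis) and as a share of the clusters of that size (y axis, %), with the number of clusters in each bar. Clusters absent as a whole (red) make up 29.1% at 2 to 4 sites and 6.02% at 10 or more sites, where 273 of 349 clusters are absent in part (light red), and blue bars are clusters with no absent site.

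The frequencies of absent sites differed by the kind of cluster. In clusters absent as a whole, the absent sites had medians of 43.5% at the 16-cell stage and 43.8% at 3.5 hpf, close to the 44.0% and 44.4% of the 2967 sites in clusters with no absent site. Accordingly, 34.5% of them (interval 32.3% to 36.8%) lay at 50% or more at both stages, against 35.7% (interval 34.0% to 37.5%) in clusters with no absent site. In clusters absent in part, the absent sites had a median of 33.3% at each early stage, while their retained neighbours had medians of 48.5% and 48.9%. Lone absent sites had medians of 32.6% and 33.3%, against 39.0% and 41.0% for lone retained sites.

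Within the 893 partly absent clusters, the median frequency of absent sites at 3.5 hpf minus that of retained sites of the same cluster had a median of -12.8 points (quartiles -25.6 and -0.86 points). Absent sites were the lower ones in 681 of the 893 clusters (76.3%). A site near the 20% limit is dropped more easily, so this contrast follows in part from the rule. The retained sites of these clusters had a frequency at 5.3 hpf that differed from that at 3.5 hpf by a median of -3.33 points (quartiles -11.5 and 3.64 points), against -0.72 points in clusters with no absent site (quartiles -7.81 and 5.35 points). Sites that fell below 20% at 5.3 hpf are not among the retained ones, which limits how low these differences can go.

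Within partly absent clusters, the share of adjacent sites with the same outcome was higher at short distance, where sites also share reads. Among adjacent sites of partly absent clusters at most 10 bp apart, both were absent or both retained in 75.2% of 4471 pairs (interval 74.0% to 76.5%). At 11 to 50 bp this share was 63.2% of 2144 pairs, and at 51 to 100 bp it was 53.3% of 580 pairs (interval 49.2% to 57.3%). In these clusters 2639 of 8088 sites (32.6%) were absent. Such clusters hold both absent and retained sites by selection, so the smallest of them can give only a pair with differing outcomes. Of the 893 clusters, 328 had 2 to 4 sites. Cluster size was not held constant across the distances, so the fall with distance cannot be separated from this selection. No expected share was computed, so 53.3% cannot be read as shared outcome.

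The cluster with the most absent sites lay at chr20:53348595-53349725 (GRCz10), outside the 3′-UTR windows used below, and held 97 T>C sites listed at both early stages over 1131 bp. Of these, 76 were absent at 5.3 hpf (78.4%) and 21 were retained. The absent sites ranged in frequency between 20% and 100%, with medians of 40.6% at the 16-cell stage and 40.9% at 3.5 hpf, and 20 of them had 50% or more at both stages. Counting every listed T>C site, this stretch held 123 sites at the 16-cell stage, 104 at 3.5 hpf and 23 at 5.3 hpf, with median frequencies of 38.8%, 40% and 40%.

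The 23 sites at 5.3 hpf stood in 3 short blocks. The first, of 75 bp at chr20:53348822-53348896, held 7 sites with a median of 64.3% and no absent site. The second, of 43 bp at chr20:53349174-53349216, held 8 sites with a median of 42.7% and 3 absent sites, and the third, of 81 bp at chr20:53349554-53349634, held 8 sites with a median of 33.2% and 2 absent sites. The remaining 932 bp of the cluster held 71 of the 76 absent sites and, as the blocks were drawn around every site of that list, no site listed at 5.3 hpf. Inside the blocks the frequencies reached 90.9% at 5.3 hpf.

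**Figure D4:**
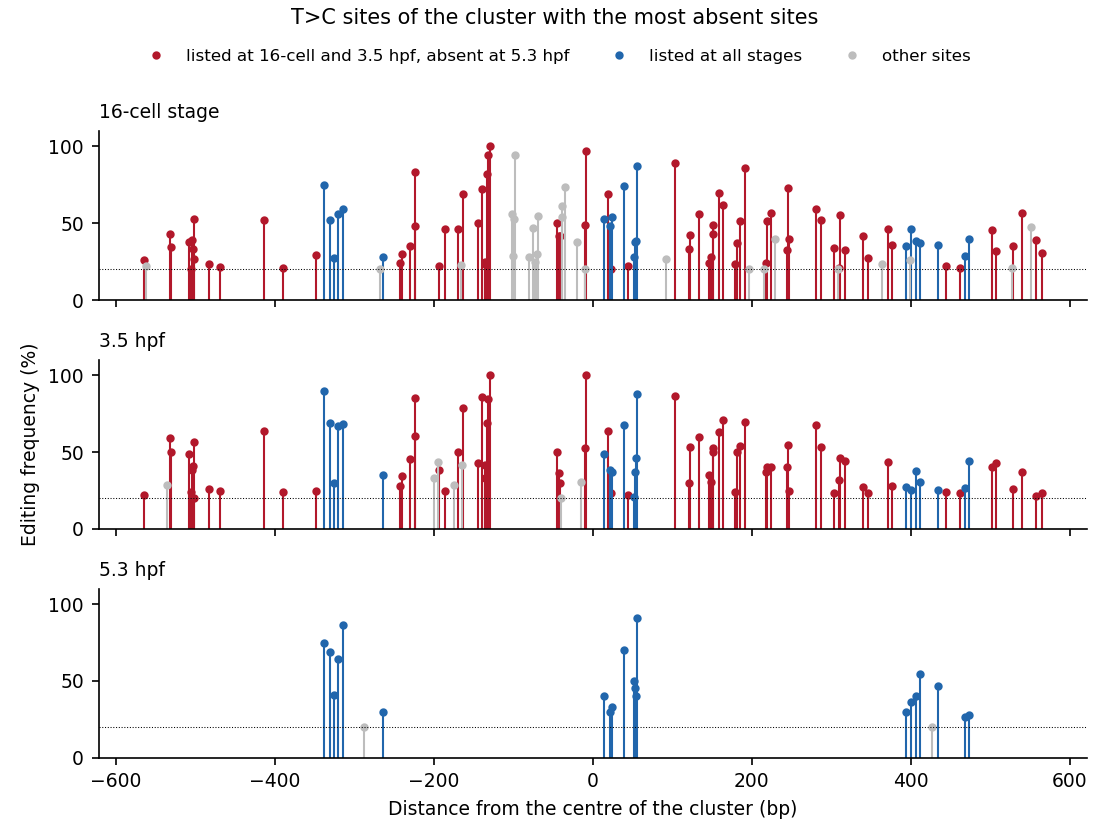
Editing frequency (y axis, %) of the T>C sites of the cluster with the most absent sites at the 3 stages, by distance from the centre of the cluster (x axis, bp). Red sites are the 76 absent ones, blue sites the 21 retained ones and grey sites the others, the dotted line marks 20%, and the 23 sites of 5.3 hpf stand in 3 blocks.

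The next 4 clusters by absent sites were also absent in part. In chr23:9617033-9617597, which lies in the window of osbpl2b, 30 of 45 A>G sites were absent, with a median of 69.2% at the 16-cell stage and 59.2% at 3.5 hpf, and 18 of them had 50% or more at both stages. Here the absent sites had the higher frequencies, since the 15 retained sites had medians of 43.3% and 45.5% at those stages. In chr15:41811534-41812132, 28 of 44 T>C sites were absent with medians of 45.8% and 45.3%, and the 16 retained sites, at 74.3% and 74.0%, had a median of 40.7% at 5.3 hpf. At chr2:244540-245159 it was 26 of 39 A>G sites and at chr11:13224281-13224737 it was 25 of 36 T>C sites, and all absent sites of both clusters had a site of the same change at 5.3 hpf within 100 bp, as did 11 of the 30 absent sites in the chr23 cluster, 22 of 28 in the chr15 cluster and 43 of 76 in the chr20 cluster. The 5 clusters together held 185 absent sites (3.73%), and the 100 clusters with the most held 26.0%, so the absent sites were spread over the 1975 clusters and lone sites that contained any.

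Among the clusters absent as a whole, the one with the most sites was a stretch of 114 bp at chr18:11588823-11588936 with 20 T>C sites. Their frequencies ran between 25% and 96.5% at the 16-cell stage and between 23.5% and 98.1% at 3.5 hpf, with medians of 55.6% and 59.1%. At chr23:40153342-40153617 there were 18 A>G sites with medians of 62.8% and 67.7%, and at chr18:2716024-2716168 and chr22:1433790-1433919 there were 17 sites each with medians of 66.7% and 56.2% at 3.5 hpf. No line of any change was listed at 5.3 hpf within 5000 bp of these last 3 clusters. The same held for 181 of the 428 wholly absent clusters (42.3%; interval 37.7% to 47.0%). These wholly absent clusters were chosen after their values were seen.

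All 25 chromosomes carried absent sites, between 66 and 326 of them, with 97 more on 46 unplaced scaffolds. The share absent at 5.3 hpf had a median of 35% over the chromosomes. It was lowest on chromosome 25 with 66 of 275 sites (24%; interval 19.3% to 29.4%) and on chromosome 7 with 172 of 659 (26.1%), and highest on chromosome 20 with 326 of 723 (45.1%; interval 41.5% to 48.7%) and on chromosome 23 with 225 of 516 (43.6%). Without the large cluster described above, chromosome 20 had 250 of 626 sites absent (39.9%; interval 36.2% to 43.8%).

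For genes, the 5000 bp windows that the authors drew over 3′-UTRs on GRCz10 served as the annotation. They were drawn for genes with at least 2 sites in these same embryos, so a high number of sites in a window is no finding. Of the absent sites, 2089 lay in such a window (42.1%; interval 40.7% to 43.5%), against 4582 retained sites (49.6%; interval 48.6% to 50.6%). On the strand of the gene lay 97.6% of the absent and 98.1% of the retained sites of the windows. Of 615 windows with sites listed at both early stages, 461 held at least 1 absent site, 129 had all these sites absent, 332 had some absent and 154 had none. Over the windows the share absent had a median of 27.3% (quartiles 1.09% and 74.4%). The roles given below for the genes are those known for their mammalian homologs or for their gene families.

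The largest number of absent sites was found in osbpl2b, a lipid transfer protein of the oxysterol-binding family (chr23:9616341-9621340). Its window held 98 sites at the 16-cell stage, 86 at 3.5 hpf and 27 at 5.3 hpf, and 56 of 78 early sites were absent, with medians of 68.4% at the 16-cell stage and 61.2% at 3.5 hpf. In ubald1b (chr3:54577990-54582989), 40 of 94 early sites were absent. These were the less edited ones, with medians of 26.1% and 29.9% against 52.6% and 50.0% of its 54 retained sites, which had a median of 31.0% at 5.3 hpf.

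In ppp2r2d, a regulatory subunit of protein phosphatase 2A (chr12:40554893-40559892), all 38 early sites were absent, with frequencies between 20% and 100% at 3.5 hpf, and the window held 59 sites at the 16-cell stage, 55 at 3.5 hpf and 1 at 5.3 hpf. In ppp2r5cb, another regulatory subunit of that phosphatase, 23 of 46 early sites were absent and 34 sites were listed at 5.3 hpf.

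The other windows with the most absent sites were those of 8 further genes. In b3galt6, a galactosyltransferase of glycosaminoglycan synthesis, 37 of 51 early sites were absent, in the sialyltransferase st3gal8 31 of 42, in the mitochondrial carrier sfxn3 29 of 47, and in the squalene synthase fdft1 22 of 35. In rnf139, a ubiquitin ligase of the endoplasmic reticulum, 28 of 63 early sites were absent, but 85 sites were listed at 5.3 hpf, 22 of them at that stage alone. In gripap1, a protein of recycling endosomes, 27 of 31 were absent and 7 sites were listed at 5.3 hpf. In si:ch211-57i17.1 it was 26 of 66. In ik, a splicing factor, the window held 22 absent sites, of which 0 had the change of its own strand, so they cannot be assigned to its transcript.

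In 82 windows with at least 1 absent site, no A>G or T>C site of any kind was listed at 5.3 hpf, and 37 of these windows held at least 3 absent sites. The absent sites of the 82 windows had medians of 40.9% at the 16-cell stage and 43.2% at 3.5 hpf, against 33.3% and 34.5% for absent sites in windows that still had a site listed. The most absent sites among them were in mier1b, a transcriptional corepressor (chr2:5896878-5901877), with 24 sites at the 16-cell stage and 23 at 3.5 hpf, 20 of them shared, at medians of 44.3% and 41.7%. In pfkfb2a, an enzyme that sets the level of a regulator of glycolysis, all 17 shared sites lay within 302 bp with medians of 39.1% and 43.8%. In ocrl, an inositol phosphatase of the endosome and Golgi, 15 sites were shared (medians 40% and 44.8%), and in the tetraspanin tspan17 13 sites within 196 bp had medians of 75.7% and 75.0%.

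Fewer sites of this kind were found in zgc:153733 with 12, zgc:110222 with 11, the copper transporter atp7a with 10, the sorting protein pacs2 with 10, the xylosyltransferase gxylt2 with 7 and the insulin receptor adaptor grb10a with 7. In grb10a the 7 sites had 28.0%, 20.5%, 46.1%, 42.5%, 33.3%, 20.9% and 36.8% at the 16-cell stage and, in the same order, 29.7%, 22.1%, 48.3%, 56.2%, 37.9%, 27.9% and 46.3% at 3.5 hpf. Each of the 7 sites was thus higher at 3.5 hpf than at the 16-cell stage, and the window had no site in the next list. However, the window held 9 sites at the 16-cell stage, and those at 25.6% and 20.2% were not listed at 3.5 hpf. The 7 sites are thus those that stayed listed, and neighbours among them share reads, so their rises are not independent. Over all absent sites the median difference between these stages was 0.09 points.

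At the other end, 66 of 226 windows with at least 10 early sites had at most 10% of them absent, and 22 of the 66 had none absent. The 5 with the most early sites were as follows. In dbnlb, an actin-binding adaptor, 2 of 68 early sites were absent and 85 sites were listed at 5.3 hpf. The autophagy regulator ambra1b had 6 of 62 absent, the lysosomal sulfatase gnsb 5 of 59, the J-domain protein dnajc25 4 of 54 and tmem185 1 of 46. In ambra1b, gnsb, dnajc25 and tmem185 the absent sites were weakly edited, with medians between 21.4% and 27.2% at 3.5 hpf, whereas their retained sites had medians between 43.6% and 62.5%. The 2 absent sites of dbnlb lay at 51.9% and 66.7% at 3.5 hpf.

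**Figure D5:**
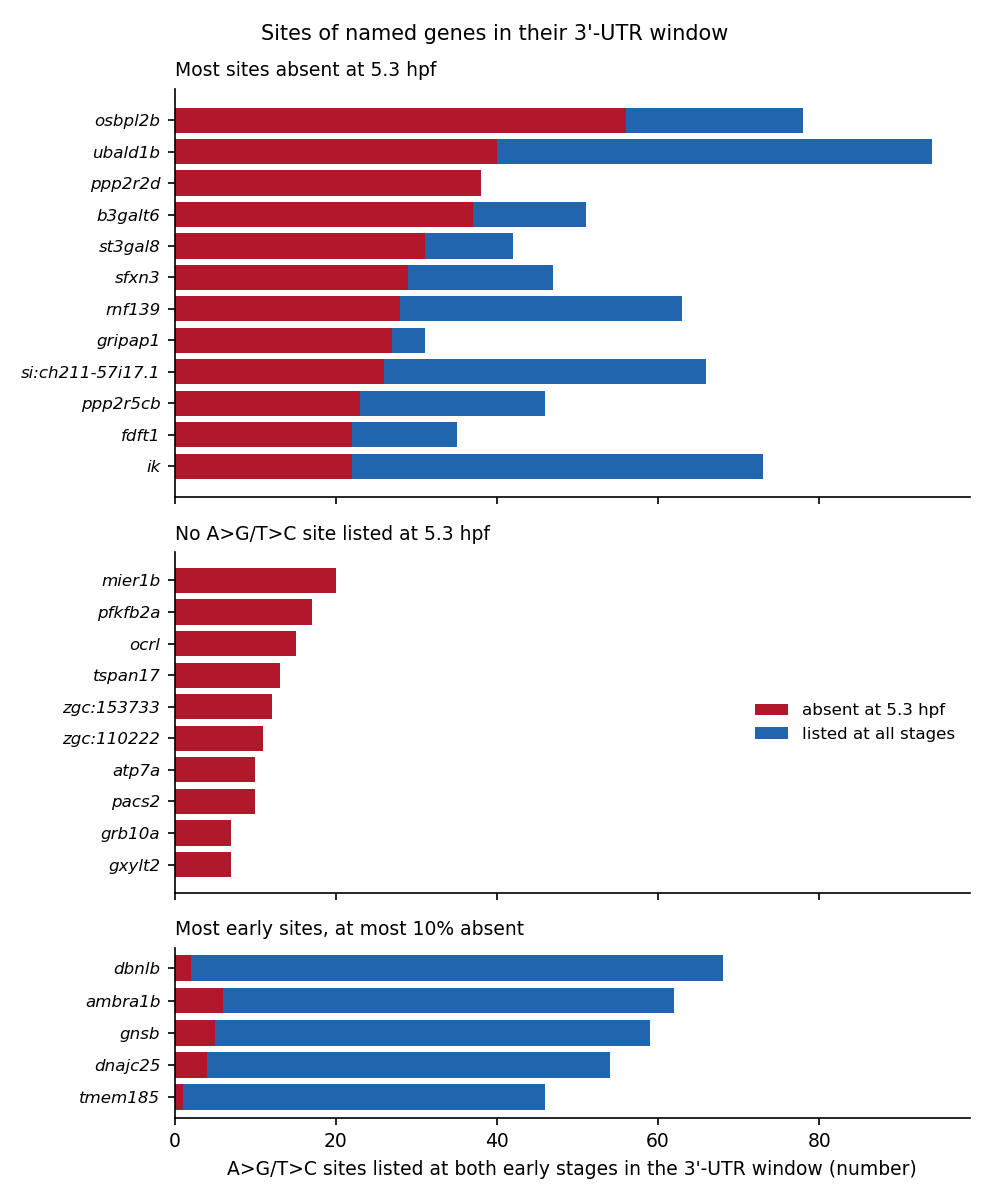
Number of A>G or T>C sites listed at both early stages in the 3′-UTR windows of named genes (x axis), split into sites absent at 5.3 hpf (red) and retained sites (blue). The top panel shows the 12 genes with the most absent sites, led by osbpl2b with 56 of 78, the middle panel 10 genes with no site listed at 5.3 hpf, and the bottom panel 5 genes with at most 10% absent, such as dbnlb with 2 of 68.

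The genes with a window were further described by 8 lists of known function, beside 31.3% of sites absent over all windows (interval 30.2% to 32.4%). The share absent was 15.7% for cell adhesion and cytoskeleton (46 of 293 sites; interval 12.0% to 20.3%) and 22.4% for vesicle transport (74 of 331; interval 18.2% to 27.1%). RNA processing and translation had 23.0% (56 of 243; interval 18.2% to 28.7%) and receptor tyrosine kinase signalling 25.6% (42 of 164; interval 19.5% to 32.8%). The share was 33.7% for ubiquitin and deubiquitinating enzymes (105 of 312; interval 28.6% to 39.1%) and 35.6% for Wnt signalling (21 of 59; interval 24.6% to 48.3%). Cell cycle and DNA repair had 39.0% (98 of 251; interval 33.2% to 45.2%) and TGF-beta superfamily signalling 40.8% (20 of 49; interval 28.2% to 54.8%). The TGF-beta share rested on 4 windows with early sites, and twsg1a held 14 and pmepa1 5 of its 20 absent sites. The median share absent per window, 27.3% over all windows, was 6.25% for adhesion and cytoskeleton, 8.70% for vesicle transport, 12.5% for RNA processing, 21.6% for receptor tyrosine kinases, 28.6% for ubiquitin enzymes, 31.4% for the TGF-beta list and 50% for cell cycle and repair. Sites of 1 window are not independent, so these intervals are too narrow, and the lists were not tested.

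Wnt signalling, which patterns the body axes, was represented by 7 genes with early sites, and all 7 had absent ones, against 461 of 615 windows in all. The interval of its share of absent sites, 24.6% to 48.3%, covered the 31.3% of all windows. The median share absent per window was 100% in this list, against 27.3% over all windows, since 4 of its windows held 1 to 4 early sites that were all absent. The Frizzled genes encode Wnt receptors. In fzd5 (chr9:28423609-28428608) the 4 shared sites had 33.9%, 41.9%, 22.2% and 32.6% at the 16-cell stage and, in the same order, 28.0%, 25.6%, 23.5% and 28.6% at 3.5 hpf, and none was listed at 5.3 hpf. Its window held 6 sites at the 16-cell stage and 4 at 3.5 hpf. The window of fzd3b held 11 sites at the 16-cell stage and 3 at 3.5 hpf, so most were missing before 5.3 hpf. Its 3 shared sites had 70.0%, 33.3% and 68.4% at the 16-cell stage and 80%, 20.0% and 75.0% at 3.5 hpf. The 2 shared sites of fzd8b had 83.3% and 45.5% at the 16-cell stage and 31.2% and 33.3% at 3.5 hpf, and its 2 sites at 5.3 hpf were of the opposite change and listed at that stage alone.

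In tcf7l1b, a transcription factor that represses Wnt targets, part of the sites remained listed. Of its 20 early sites 7 were absent, with frequencies between 23.1% and 33.3% at 3.5 hpf, and the 13 retained sites had medians of 50.0% at the 16-cell stage, 54.5% at 3.5 hpf and 35.7% at 5.3 hpf. In the Wnt regulator rnf146, 2 of 26 early sites were absent.

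Among receptor tyrosine kinase genes the absent sites were unequally placed. The FGF receptor gene fgfr1a had 11 of 57 early sites absent, with medians of 34.0% and 29.7% against 42.4% and 44.0% for its 46 retained sites. In dusp4, a phosphatase of MAP kinases, 7 of 9 were absent, with frequencies between 23.0% and 38.1% at the 16-cell stage and between 27.3% and 54.5% at 3.5 hpf. Its retained sites had 56.2% and 27.0% at the 16-cell stage, 58.0% and 31.5% at 3.5 hpf, and 22.2% and 20.8% at 5.3 hpf. Both retained sites of dusp4 thus stood close to the 20% limit. In igf1rb, an IGF receptor gene, 2 of 33 early sites were absent.

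In the TGF-beta list, twsg1a, which encodes a BMP-binding protein, had 14 of 37 early sites absent, while 51 sites were listed at 5.3 hpf and 17 of them at that stage alone. In pmepa1, an inhibitor of TGF-beta signalling, 5 of 6 early sites were absent. Its window held 42 sites at the 16-cell stage, 35 at 3.5 hpf and 2 at 5.3 hpf, so few sites were shared even by the early lists. Of other edited genes that the paper names, the TGF-beta processing protease furina had 1 of 4 early sites absent, and extl3, a glycosyltransferase of heparan sulfate synthesis, and ezrb, a linker of membrane and actin, had 0 of 3 and 0 of 1.

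The cell cycle and DNA repair list had absent sites in 18 of 21 windows with early sites, against 461 of 615 over all windows. It takes in cyclin and cyclin-dependent kinase family members such as cdk5, cdk10, ccnt1 and ccnk, whose part in the cell cycle was not checked. In cdk10, 17 of 64 early sites were absent, with medians of 30.8% and 36.4% against 57.9% and 51.2% for its retained sites. In the chromosome-associated kinesin kif4 it was 13 of 31. In fancd2, a core protein of the Fanconi anemia repair pathway, 12 of 14 early sites were absent, and in cdk5 12 of 17. The 3 early sites of fancc, of the same repair pathway, had 26.1%, 41.2% and 20.0% at the 16-cell stage and 20.0%, 40% and 25% at 3.5 hpf, and its window had no site at 5.3 hpf. Values of fancd2, cdk5 and fancc, like those of rnf146, igf1rb, extl3, furina and ezrb, were chosen after they were seen.

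Ubiquitin enzymes were led by rnf139, described above, and by fbxl2, an F-box protein of ubiquitin ligases. In fbxl2 all 19 early sites were absent at medians of 45.7% and 42.9%, although 2 other sites of its window were listed at 5.3 hpf alone. Vesicle transport genes had absent sites in 20 of 37 windows with early sites, against 461 of 615 over all windows. Such shares depend on the number of early sites per window, which was not held equal between lists. Among the vesicle genes, tmed1b, a membrane protein of the early secretory pathway, had 14 of 25 absent. In rab33b, a GTPase of the Golgi whose window was also listed as rab33ba, it was 10 of 21. The absent sites of rab33b had medians of 51.6% and 53.7%, above the 37.2% and 34.6% of its 11 retained sites.

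RNA processing genes had absent sites in 19 of 29 windows with early sites, against 461 of 615 over all windows. In none of the 29 was every early site absent, against 129 of 615. In dcp1a, a subunit of the mRNA decapping complex, 9 of 19 were absent at medians of 51.4% and 58.8%, and in tsen54, a subunit of the tRNA splicing endonuclease, 8 of 18. Among the adhesion and cytoskeleton genes, the claudin-domain gene cldnd1b had 15 of 52 early sites absent. In pafah1b1a, a regulator of the dynein motor, all 7 were absent and no site was listed at 5.3 hpf. The adhesion and cytoskeleton list had the lowest share absent of the 8. In 6 of its 23 windows with early sites all of them were absent, a share similar to the 129 of 615 over all windows. These 6 windows held between 1 and 7 early sites, and a window with few sites is more easily absent as a whole.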

How the data were processed

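RNA of pooled offspring at the 16-cell stage, 3.5 hpf and 5.3 hpf was sequenced after rRNA depletion, with 1 library each, and genomic DNA of both parents. Per the paper's methods and the submitters' processing notes, reads were aligned to GRCz10 with STAR 2.7.7a and SAMtools 1.11, and REDiscover kept mismatches between homozygous parental DNA and RNA after quality, depth and frequency limits. The deposited value of a site is a fraction, computed by the authors from the reads over it, and no coverage is given. Which reads were lost in alignment of densely edited regions is unknown.

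The lists were joined by chromosome, position and change, with Python 3.11.15, numpy 2.4.6 and matplotlib 3.10.9, and positions are written from 1. Clusters linked sites of the same change within 100 bp. Functions were tested on simulated data. Windows with the same coordinates were merged, and sites in overlapping windows were counted in each. The members, gene lists and tests were chosen with earlier results of these data known. Named genes were the 12 with the most absent sites, the 10 with the most (at least 3) and no site at 5.3 hpf, the 5 with the most early sites and at most 10% absent, up to 2 per list, and 6 of the genes the paper names. Gene tables of 12 hpf and 7 dpf hold the authors' fold changes, p-values and means and were not used. A planned comparison with the 12 hpf means was void, because 488 of 617 genes (79.1%) could be paired with 1 gene ID, under the 80% required. Alternatives were other distances, frequency minimums, chromosomes and strands.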

Additional observations from a re-analysis of the deposited data

How the results depend on the processing

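No paired analysis was possible because each stage had 1 library and no replicate numbers. The share absent at 5.3 hpf, 35%, was 28.2% among sites with a frequency of at least 30% at both early stages (2657 of 9434 sites), 26.1% at 50% or more (1279 of 4892 sites), and 34.0% for sites with at least 4 of 9 consecutive sites of their change, the site and its neighbours. It stayed inside its interval on the 25 numbered chromosomes, without chromosome 4 and when any change at the position counted. The share of absent sites with a site of the same change at 5.3 hpf within 100 bp, 55.6%, was 46.2% within 50 bp, 68.9% within 500 bp, 75.6% within 5000 bp and 47.4% with 5.3 hpf sites of at least 30%. These moves follow from fewer or more sites being eligible. At links of 50 bp and 500 bp, 21.6% and 21.9% of clusters of 2 or more sites were absent as a whole, against 21.6% at 100 bp. Windows with an absent site numbered 461, 454 on the strand of the gene and 289 at 30% or more, and the share of absent sites in windows was 40.2% at 30% or more, an alternative chosen after the data were seen. The alternatives for the 12 hpf means were not run. Without coverage, depth limits every statement on absence.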
